A study of Mesocricetus auratus with 8 samples.

Results

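Transcript levels of the YAP-TEAD pathway were examined in satellite cells (SCs), the stem cells of skeletal muscle, of the Syrian hamster before and after cold exposure. The genes were chosen by symbol and comprised 10 of the 17590 genes with values in the expression table: the coactivators Yap1 and Wwtr1, the DNA-binding partners Tead1, Tead2, Tead3 and Tead4, the vestigial-like cofactors Vgll2 and Vgll3, and Ankrd1 and Amotl2, which are widely used as readouts of YAP activity. All 10 genes were detected in each of the 8 libraries, and all 10 passed the filter on low counts. None of them was called higher or lower after 24 h at 4°C.

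YAP (encoded by Yap1) and its paralog TAZ (encoded by Wwtr1) carry no DNA-binding domain of their own and act on genes through the TEAD factors. Kinases of the Hippo cascade phosphorylate both proteins and thereby keep them out of the nucleus, so that much of the control of this pathway acts on the proteins and is not read by transcript levels. Vestigial-like proteins bind TEADs through a short motif and compete with or replace YAP and TAZ. In SCs the pathway is known for promoting proliferation of activated myoblasts, and TEAD factors also bind MCAT elements in promoters of muscle structural genes.

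The SCs were primary cells from the hindlimb muscles of wild-type Syrian hamsters, depleted of fibroblasts by preplating and grown in growth medium at 37°C for 48 h, then for 24 h in the same medium with 100 mM HEPES. Control libraries (n = 4) were prepared from cells before cold exposure, and cold libraries (n = 4) from cells kept for a further 24 h at 4°C without a change of medium. The cold cells were therefore collected 24 h later than the controls, and cells kept at 37°C for those 24 h were not analysed here. The study describes the libraries of each group as biological replicates. The sources used here do not say whether they came from separate animals or from separate cultures, and the p-values measure the spread between these libraries. The titles place all 4 control libraries on day 3, whereas the treatment labels of controls 1, 2, 3 and 4 give 3, 4, 5 and 6 days at 37°C. The titles were followed.

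Polyadenylated RNA was sequenced to between 16530747 and 18533801 expected counts per library, that is, estimated numbers of reads per gene, which need not be whole. The lowest count of the 10 YAP-TEAD genes in any library was 311 (Tead3). Levels are given as TPM, a measure scaled for transcript length within each library. SC and myoblast markers were present in all 8 libraries (9 of 9 listed genes), from Pax7 at 10.8 to 16.1 TPM and Vcam1 at 9.08 to 15.8 TPM to the far more abundant Des, Myod1 and Ncam1, with a summed level of 2220.1 to 2619.6 TPM in control and 2119.6 to 2459 TPM in cold libraries, lower in the cold in 4 of 4 pairs. With the replicate number as a block in the edgeR model, 3 of the 9 fell, where 4.07% of all genes were called lower, and none was called without it. Those were Myod1 (-0.13 on the log2 scale, adjusted p = 0.02), Cdh15 (-0.32, adjusted p = 1.19e-05) and Itga7 (-0.29, adjusted p = 1.14e-05), a myogenic transcription factor, a cadherin and an integrin, each lower in 4 of 4 pairs. The list as a whole had a median of -0.04, and Pax7, Myf5 and Sdc4 had differences of 0.08, 0.08 and 0.04 with the block that did not pass the test. The endothelial list summed to 2.02 to 3.95 TPM in control and 2.05 to 3.72 TPM in cold libraries, with Kdr and Vwf under 0.1 TPM in every library. The mural list summed to 67.5 to 93.9 TPM and 67.1 to 89.6 TPM. Its control means were 42.5 TPM for Pdgfrb and 28.3 TPM for Cspg4, but 0.385 TPM for Rgs5, 2.37 TPM for Myh11 and 1.81 TPM for Notch3. The immune list summed to 40.9 to 97.2 TPM and 44.1 to 105 TPM, with Ptprc and Adgre1 under 0.1 TPM in every library and the other 3 listed genes expressed. Cd68 ranged from 23.3 to 52.0 TPM, Cd14 from 14.95 to 49.0 TPM and Csf1r from 2.31 to 4.55 TPM over the 8 libraries. The log2 differences of these 3 with the block were 0.13, 0.14 and 0.11 (edgeR, adjusted p = 0.4, 0.197 and 0.606), with Cd14 higher in the cold in 4 of 4 pairs, and their part in the results below was not tested. Fibroblast markers, in contrast, summed to 1217 to 1739 TPM in control and 1201 to 1687 TPM in cold libraries (7 of 8 listed genes, none near 0). Transcripts of these genes were thus present beside those of SC markers, and which cells they came from was not tested. By staining, the study reports that the large majority of its isolated hamster cells were positive for Pax7 or MyoD. Bulk libraries cannot tell apart fewer cells of a type and less RNA per cell.

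Yap1 was expressed at 94.2, 97.9, 146 and 152 TPM in control libraries 1 to 4 and at 106, 106, 149 and 145 TPM in cold libraries 1 to 4. The group means were 123 ± 30.9 TPM in control and 126 ± 23.8 TPM in cold SCs (SD, n = 4). In both groups the libraries numbered 3 and 4 were high and those numbered 1 and 2 low, and the groups overlapped over most of their range. The cold against control difference of Yap1 was 0.03 on the log2 scale with a standard error (SE) of 0.16 (edgeR, adjusted p = 0.999), and 3 of 4 same-numbered pairs were higher in the cold. The expected counts of Yap1 carried decimals in all 8 libraries, which those of the other 9 genes did not, so its reads may have been shared with another gene model and its level is less certain.

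Wwtr1, the TAZ gene, was expressed at 108, 106, 75.8 and 121 TPM in control libraries 1 to 4 and at 116, 112, 83.2 and 120.1 TPM in cold libraries 1 to 4. The library numbered 3 was the lowest of each group, and the remaining values of both groups lay close together. The means of Wwtr1 were 102 ± 19.1 TPM and 108 ± 16.7 TPM (SD, n = 4), with a log2 difference of 0.05 (SE 0.16, adjusted p = 0.999) and 3 of 4 pairs higher in the cold. Added together, the 2 coactivators reached 202 to 273 TPM in control and 217 to 265 TPM in cold libraries.

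Among the TEAD genes, Tead1 and Tead2 were the most abundant. Tead1 stood at 47.3, 50.1, 54.9 and 60.8 TPM in control libraries 1 to 4 and at 53.0, 53.3, 55.8 and 56.4 TPM in cold libraries 1 to 4. The cold values of Tead1 all fell within the range of the controls, with means of 53.3 ± 5.90 TPM and 54.6 ± 1.71 TPM (SD, n = 4) and a log2 difference of 0.02 (SE 0.06, adjusted p = 0.999). Tead2 stood at 58.9, 61.7, 54.3 and 56.2 TPM in control libraries 1 to 4 and at 62.1, 65.9, 58.5 and 55.0 TPM in cold libraries 1 to 4. It was higher in the cold in 3 of 4 pairs and lower in the pair numbered 4, and the groups overlapped. The log2 difference of Tead2 was 0.05 (SE 0.08, adjusted p = 0.999).

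Tead3 was the least abundant of the 10 genes. It was measured at 10.3, 11.1, 13.95 and 12.5 TPM in control libraries 1 to 4 and at 10.6, 10.6, 15.3 and 12.8 TPM in cold libraries 1 to 4. The libraries numbered 3 were the highest of both groups, and the log2 difference of Tead3 was 0.03 (SE 0.12, adjusted p = 0.999).

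Tead4, the family member known as a direct target of MyoD in myoblasts, was measured at 23.2, 22.04, 19.3 and 20.9 TPM in control libraries 1 to 4. In cold libraries 1 to 4 it was measured at 19.8, 22.3, 18.6 and 18.2 TPM. The cold value was the lower one in 3 of 4 pairs and about level with its control in the pair numbered 2, and the groups overlapped. The mean of Tead4 was 21.4 ± 1.64 TPM in control and 19.7 ± 1.86 TPM in cold SCs (SD, n = 4), a log2 difference of -0.14 (SE 0.10, adjusted p = 0.958) that did not pass the test.

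Vgll2, a TEAD cofactor largely restricted to skeletal muscle, was the most abundant regulator among the 10 genes. It was measured at 300.1, 287, 223 and 178 TPM in control libraries 1 to 4 and at 257, 242, 215.5 and 200.1 TPM in cold libraries 1 to 4. Both groups were high in the libraries numbered 1 and 2 and low in those numbered 3 and 4, and the 4 cold values lay within the control range. The means of Vgll2 were 247 ± 57.4 TPM and 229 ± 25.6 TPM (SD, n = 4), with a log2 difference of -0.14 (SE 0.18, adjusted p = 0.999).

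The pairs of Vgll2 went different ways. The cold library was lower than its control by 0.22, 0.25 and 0.05 on the log2 TPM scale in the pairs numbered 1, 2 and 3, and higher by 0.17 in the pair numbered 4. Fitted on replicates 1 and 2 alone, Vgll2 was lower in the cold by 0.29 on the log2 scale (edgeR, adjusted p = 0.000159, a fit in which 11.6% of all genes were called). Fitted on replicates 3 and 4 alone it differed by 0.06 (adjusted p = 0.997, with 0.397% of all genes called). With the block these differences were -0.30 (adjusted p = 1.59e-10, with 17.1% of all genes called) and 0.07 (adjusted p = 0.679, with 2.95% of all genes called). The difference between these 2 fits was not tested.

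Vgll3, a second TEAD cofactor, was measured at 73.8, 72.0, 88.6 and 107 TPM in control libraries 1 to 4. In cold libraries 1 to 4 it was measured at 72.5, 76.6, 87.3 and 94.3 TPM. Unlike Vgll2 it was lower in the libraries numbered 1 and 2 than in those numbered 3 and 4, in both groups. The log2 difference of Vgll3 was -0.06 (SE 0.11, adjusted p = 0.999).

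Ankrd1, which encodes the ankyrin-repeat protein CARP and is among the most responsive YAP targets in many cell types, was the most abundant of the 10 genes. It was measured at 1467, 1428, 1262 and 1313 TPM in control libraries 1 to 4 and at 1279, 1459, 1234 and 1203 TPM in cold libraries 1 to 4. The cold value was the lower one in 3 of 4 pairs and the higher one in the pair numbered 2, and only cold 3 and cold 4 lay under every control. The mean of Ankrd1 was 1368 ± 96.1 TPM in control and 1294 ± 114 TPM in cold SCs (SD, n = 4), a log2 difference of -0.10 (SE 0.09, adjusted p = 0.999).

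Amotl2, an angiomotin-family protein that is both a YAP target and an inhibitor of YAP, was the only one of the 10 genes to go the same way in all 4 pairs. It was measured at 67.6, 71.1, 58.7 and 65.1 TPM in control libraries 1 to 4. In cold libraries 1 to 4 it was measured at 76.4, 77.4, 62.4 and 68.3 TPM. Cold 1 and cold 2 lay above every control, while cold 3 and cold 4 lay within the control range. The mean of Amotl2 was 65.6 ± 5.25 TPM in control and 71.1 ± 7.11 TPM in cold SCs (SD, n = 4), a log2 difference of 0.10 (SE 0.10, adjusted p = 0.999). Over all 12506 genes tested, 12.8% were higher in the cold in all 4 pairs and 10.5% lower (23.3% in all), so 1 gene of 10 with 4 pairs one way was below the share over all genes.

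**Figure D1:**
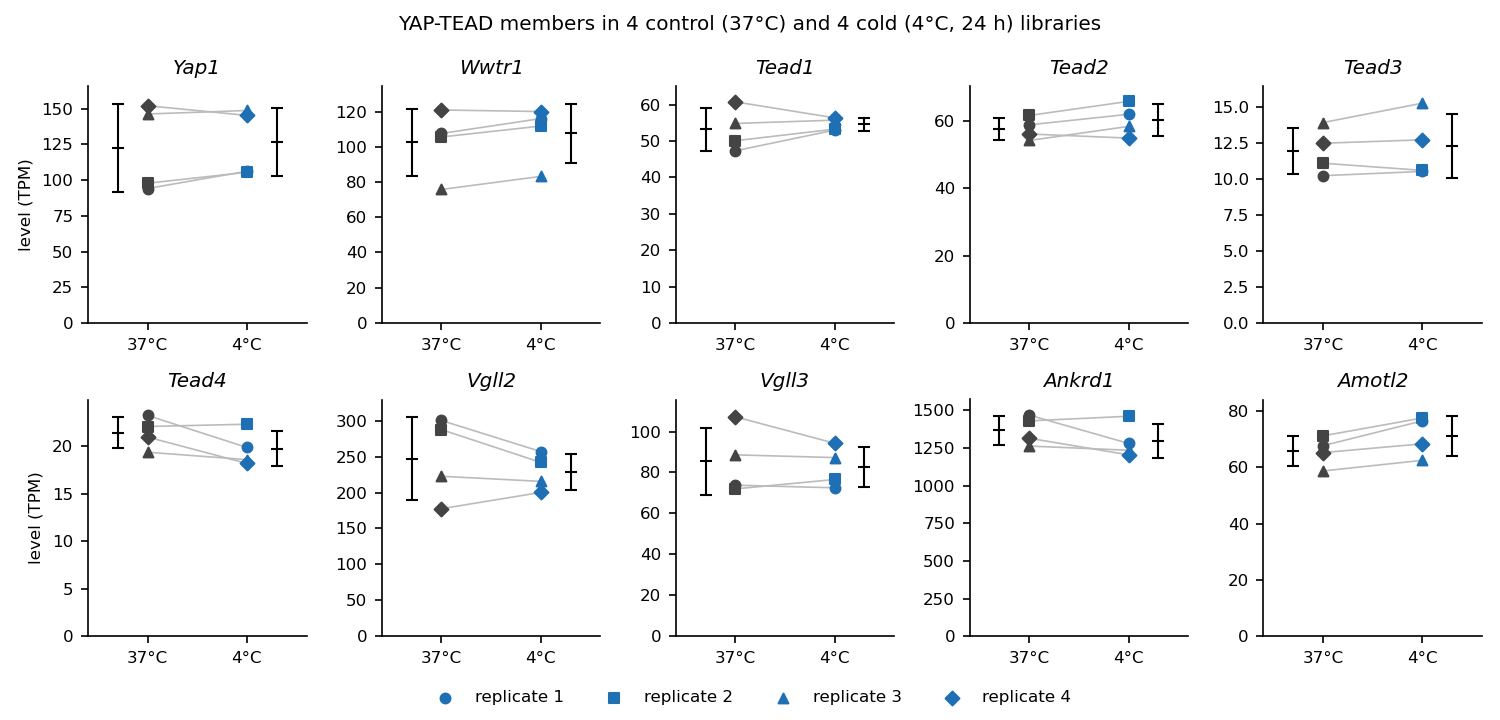
TPM (y axis, from 0, one panel per gene) of the 10 YAP-TEAD genes in control (37°C, dark symbols) and cold (4°C for 24 h, blue symbols) libraries. Symbols mark the replicate number, grey lines join same-numbered libraries, and black bars beside them give the mean and SD of 4 libraries. The 2 groups overlap in every panel, and in the Yap1 and Vgll2 panels the libraries numbered 1 and 2 stand apart from those numbered 3 and 4.

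The question posed by the comparison is how SCs of a hibernator respond to 24 h of cold, and for the 10 YAP-TEAD genes the answer was read against the whole table. At an adjusted p under 0.05, 0 of 10 genes were called, where 9 of 12506 genes (0.072%) were called in all, each of them lower in the cold. At an unadjusted p under 0.05 the count of YAP-TEAD genes was also 0, against 6.7% of all genes, and DESeq2 called 0 as well, against 1.14% of all genes. The TPM groups of all 10 genes overlapped, where 4.68% of the genes tested had groups that did not overlap (2.27% with the cold group above and 2.41% below). The spread among the 4 controls was wider than the cold against control difference for each of the 10 genes. With so few genes called in all, a count of 0 does not set the YAP-TEAD genes apart.

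The median log2 difference of the 10 genes was 0.02, beside 0.01 over all genes tested, with 6 genes above 0 and 4 below. The 95% intervals of the fold change ranged, over the 10 genes, from a lower bound of 0.687 (Vgll2) to an upper bound of 1.33 (Wwtr1), so that a change of 2-fold in either direction lay outside the interval of all 10 genes. Of all genes tested, 92.9% had an interval that lay within those limits.

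The same-numbered control and cold libraries deviated together, and taking the replicate number into the model as a block narrowed the intervals. With the block 0 of 10 genes were called, against 5.33% of all genes (1.26% higher and 4.07% lower in the cold). At an unadjusted p under 0.05 there were 3, against 18.2% of all genes. Those 3 were Tead4, with a log2 difference of -0.14 (SE 0.05, edgeR with block, adjusted p = 0.112), Ankrd1, with -0.10 (SE 0.04, adjusted p = 0.156), and Amotl2, with 0.10 (SE 0.04, adjusted p = 0.154). With the block, the fold intervals of the 10 genes ran from 0.848 (Tead4) to 1.13 (Amotl2), and 97% of all genes had an interval within 2-fold. DESeq2 with the block also called 0 of the 10, against 2.85% of all genes. Without the pair numbered 4, Vgll2 was called in the blocked fit, at -0.21 on the log2 scale (adjusted p = 0.00524), where 7.44% of all genes were called.

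**Figure D2:**
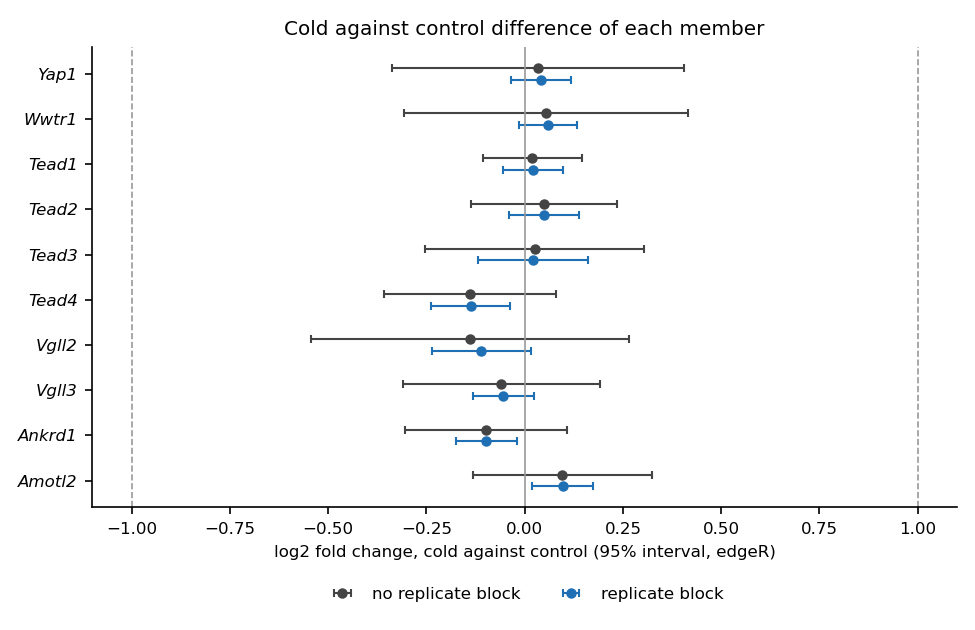
Log2 fold change of cold against control (x axis) for each of the 10 YAP-TEAD genes, with 95% intervals, from edgeR without (dark) and with (blue) a block for the replicate number. The dashed lines mark a 2-fold change in either direction, and all intervals end well inside them.

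Levels of different genes were set side by side within a library on the TPM scale. By control mean the order was Ankrd1, Vgll2, Yap1, Wwtr1, Vgll3, Amotl2, Tead2, Tead1, Tead4 and Tead3. Ankrd1 was above Vgll2 and Vgll2 above Yap1 in 8 of 8 libraries, at ratios of 5.54 and 2.01 between the control means. Tead1 was above Tead4 and Tead4 above Tead3 in 8 of 8 libraries as well, at ratios of 2.49 and 1.79. Several neighbours were not separated by their spread. Yap1 was above Wwtr1 in 4 of 8 libraries, Tead2 above Tead1 in 5 of 8, and Wwtr1 above Vgll3 in 6 of 8, and the control values overlapped in each of these 3 pairs. Vgll3 was above Amotl2 in all 4 controls without overlap, but in 6 of 8 libraries in all. The control values of Amotl2 and Tead2 overlapped, although Amotl2 was the higher in each of the 8 libraries.

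The balance between paralogs was compared as the share of each in the summed TPM of its family. Yap1 made up 54.1% ± 8.81 of the Yap1 and Wwtr1 sum in control and 53.8% ± 7.56 in cold SCs (SD, n = 4, exact two-sided permutation test over 70 arrangements, p = 0.914). The share of Yap1 was 46.7%, 48.1%, 65.9% and 55.7% in control libraries 1 to 4 and 47.8%, 48.6%, 64.1% and 54.8% in cold libraries 1 to 4, so each number kept its place in both groups.

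The 4 TEAD genes together summed to 139.7 to 150.4 TPM in control and 142 to 152 TPM in cold libraries. Tead2 took the largest mean share, 40.1% ± 2.70 in control and 41.0% ± 2.31 in cold SCs, followed by Tead1 with 36.8% ± 3.14 and 37.2% ± 1.95 (SD, n = 4). Tead3 took 8.28% ± 1.09 and 8.38% ± 1.57. The share of Tead4 was 16.6%, 15.2%, 13.6% and 13.9% in control libraries 1 to 4 and 13.6%, 14.6%, 12.5% and 12.8% in cold libraries 1 to 4. All 4 pairs had the smaller Tead4 share in the cold library, and all 4 had the larger Tead2 share there.

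The difference in the share of Tead4 was -1.43 percentage points (exact two-sided permutation test, n = 4 against 4, p = 0.143, adjusted over 5 shares 0.714), and with single libraries left out it ranged from -1.85 (without cold 2) to -0.84 (without control 1). For Tead2 it was 0.97 points (exact permutation p = 0.514, adjusted 0.943), and with single libraries left out it ranged from 0.076 (without control 4) to 1.81 (without control 2). Shares taken from counts per library total, with no scaling for length, gave 0.43 points for Tead2 and -1.42 for Tead4. Neither passed the test, in which p cannot fall below 0.0286 before adjustment, so that no share could have passed alone after adjustment over 5. In the exact sign-flip test over the 4 pairs, Tead2 and Tead4 each reached the smallest p that 4 pairs can give, which is above 0.05, so that this test could not have passed the threshold.

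**Figure D3:**
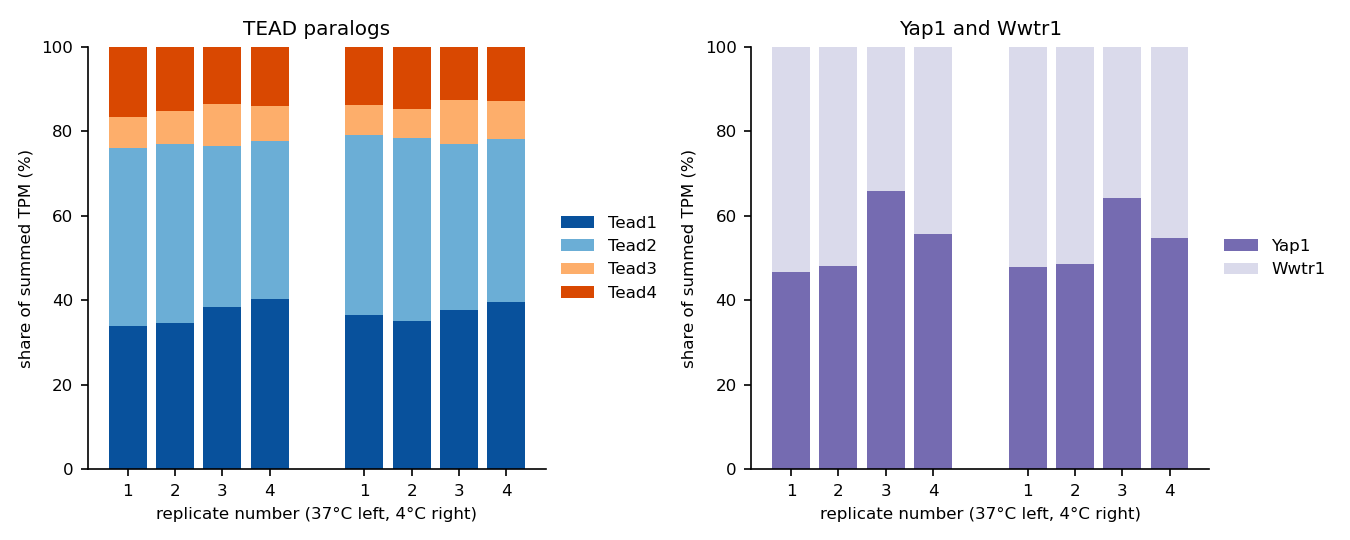
Share of each paralog in the summed TPM of its family (y axis, percent), for the 4 TEAD genes on the left and for Yap1 and Wwtr1 on the right, in each control (37°C) and cold (4°C) library by replicate number. The Tead4 segment is smaller in each cold library than in its same-numbered control, and the Yap1 share is highest in the libraries numbered 3 of both groups.

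The libraries numbered 1 and 2 differed from those numbered 3 and 4 in both groups, and the first principal component of all genes (54.5% of the variance) separated them, ahead of the component that separated cold from control (17.9%). The labels do not say what a number marks. For 6 of the 10 YAP-TEAD genes, the values of the 4 libraries numbered 1 and 2 did not overlap those of the 4 numbered 3 and 4, where 32.6% of all genes tested had no overlap. Vgll2 was higher in libraries 1 and 2 (242 to 300.1 TPM) than in 3 and 4 (178 to 223 TPM), and so was Tead2 (58.9 to 65.9 against 54.3 to 58.5 TPM). Yap1 was lower in libraries 1 and 2 (94.2 to 106 TPM) than in 3 and 4 (145 to 152 TPM). Tead1, Tead3 and Vgll3 were lower there too, with Vgll3 at 72.0 to 76.6 TPM against 87.3 to 107 TPM. Wwtr1, Tead4, Ankrd1 and Amotl2 overlapped. For Yap1, the gap between these numbers was wider than any difference between a control and its same-numbered cold library.

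The summed levels of 3 of the 6 marker lists, the fibroblast, immune and endothelial ones, split by the same numbers without overlap over the 8 libraries. That of differentiating muscle genes split by number within each group, while cold 1 and cold 2 lay below controls 3 and 4. The summed level of the 8 listed genes of differentiating muscle was 3179 and 3118 TPM in controls 1 and 2 and 1635 and 1745 TPM in controls 3 and 4. In cold libraries 1 to 4 it was 1249, 1438, 956 and 829.7 TPM. The summed fibroblast level was 1217 and 1239 TPM in controls 1 and 2, 1472 and 1739 TPM in controls 3 and 4, and 1292, 1201, 1492 and 1687 TPM in cold libraries 1 to 4. The summed immune level was 46.7 and 40.9 TPM in controls 1 and 2, 97.2 and 75.3 TPM in controls 3 and 4, and 49.5, 44.1, 105 and 89.7 TPM in cold libraries 1 to 4. The endothelial level was 2.02 and 2.58 TPM in controls 1 and 2, 3.27 and 3.95 TPM in controls 3 and 4, and 2.28, 2.05, 2.78 and 3.72 TPM in cold libraries 1 to 4. The summed levels of the SC and mural lists overlapped between these numbers. The part of any of these in the levels of Yap1, Vgll2 and the other 4 genes was not tested.

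**Figure D4:**
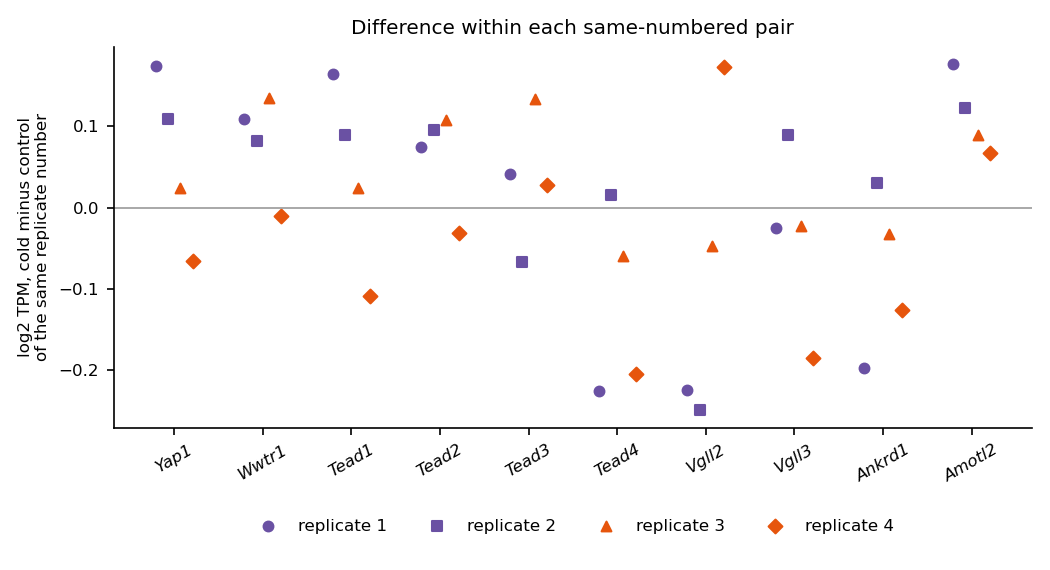
Difference in log2 TPM between each cold library and its same-numbered control (y axis) for the 10 YAP-TEAD genes, with symbols by replicate number (1 and 2 in purple, 3 and 4 in orange). Amotl2 is above 0 in all 4 pairs, and Vgll2 lies between -0.25 and 0.17.

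The other genes of the pathway were taken from 7 lists, 66 genes in all, of which 60 were tested. Without the block none of the 60 was called, against 0.072% of all genes, and 6 had an unadjusted p under 0.05, against 6.7% of all genes. Lats2 and Ptpn14 stand in 2 lists each and are counted once in these totals. With the block 8 were called, 2 higher and 6 lower in the cold. Of the 6 lower genes, 5 were from the MCAT list of muscle genes. All list counts below are from the blocked fit, set against 1.26% higher and 4.07% lower over all genes.

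Of the Hippo kinases and their adaptors, 0 of 14 tested genes were called, with a median log2 difference of 0.04 that ranged from -0.012 (without control 1) to 0.099 (without control 4) with single libraries left out. The kinase Stk3 (MST2) ranged from 20.0 to 22.6 TPM in the controls and from 22.6 to 25.1 TPM in the cold, just without overlap, and differed by 0.12 (SE 0.05, edgeR with block, adjusted p = 0.251). Stk4 (MST1), its paralog, differed by 0.11 (adjusted p = 0.298) and the adaptor Wwc2 by 0.11 (adjusted p = 0.16). All 3 were higher in the cold in 4 of 4 pairs without passing the test. Without the block and with single libraries left out, Stk3 ranged from 0.066 to 0.14 and Stk4 from 0.051 to 0.15. Wwc2 ranged from 0.071 to 0.14 in those fits. Wwc1, with means of 0.09 TPM in control and 0.113 TPM in cold SCs, was not tested.

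Of the proteins that hold YAP and TAZ at cell junctions or scaffolds, 0 of 6 tested genes were called, with a median log2 difference of 0.07. Ptpn14 and Amot, which sequester YAP, differed by 0.14 (edgeR with block, adjusted p = 0.183) and 0.09 (adjusted p = 0.387). Without the block and with single libraries left out, Ptpn14 ranged from 0.064 to 0.19 and Amot from 0.011 to 0.16. Tjp1, a scaffold protein of tight junctions, was measured at 21.7, 22.5, 26.6 and 27.6 TPM in control libraries 1 to 4 and at 26.4, 26.1, 26.2 and 27.04 TPM in cold libraries 1 to 4. Cold 1 and cold 2 were above their own controls and cold 3 and cold 4 slightly below theirs, and the log2 difference was 0.09 (SE 0.05, adjusted p = 0.306).

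Of the STRIPAK phosphatase complex, which opposes the Hippo kinases, 0 of 7 tested genes were called and the median was -0.01. Its largest differences were -0.11 for the striatin Strn3 (adjusted p = 0.139 with the block), -0.11 for Sike1 (adjusted p = 0.301) and 0.09 for Fgfr1op2 (adjusted p = 0.371). The mean TPM of Fgfr1op2 was 41.3 in control and 41.1 in cold SCs, so that its counts and its length-scaled level did not go the same way. Vgll4, a vestigial-like repressor of YAP, ranged from 39.0 to 53.7 TPM in the controls and from 41.1 to 58.5 TPM in the cold, with a log2 difference of 0.03 (adjusted p = 0.762).

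Of 20 genes known as YAP and TAZ targets, 18 had a log2 difference above 0 without the block, with a median of 0.06, and 3 were called with the block. With single libraries left out that median ranged from 0.0034 (without control 2) to 0.13 (without control 3). Over all genes tested, 6612 of 12506 had a difference above 0. Asap1, a regulator of Arf GTPases at focal adhesions, rose by 0.19 (SE 0.04, edgeR with block, adjusted p = 0.00894). It was measured at 35.5, 35.9, 43.2 and 39.6 TPM in control and 44.1, 43.3, 45.1 and 44.8 TPM in cold libraries 1 to 4, with all cold values above all controls. Ccdc80, a secreted matrix protein, rose by 0.14 (SE 0.04, adjusted p = 0.0385), from 91.9 ± 14.7 to 102 ± 11.4 TPM (SD, n = 4), and was higher in 4 of 4 pairs. Without the block and with single libraries left out, the log2 difference of Ccdc80 ranged from 0.068 to 0.22.

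Igfbp3, an insulin-like growth factor binding protein, went the other way. It was measured at 851, 820.3, 673 and 728 TPM in control and 712, 728, 648 and 649 TPM in cold libraries 1 to 4, lower in each pair. Igfbp3 fell by 0.18 on the log2 scale with the block (SE 0.04, adjusted p = 0.00684). The fold changes of Asap1, Ccdc80 and Igfbp3 with the block were 1.14, 1.103 and 0.883, and none of the 3 was called without it. None of the 3 was called in the blocked fit without the pair numbered 1 (adjusted p = 0.0554, 0.333 and 0.0556), without the pair numbered 2 (adjusted p = 0.0975, 0.133 and 0.0604) or in replicates 3 and 4 alone. Ccdc80 was also not called without the pair numbered 3 (adjusted p = 0.0692) or by DESeq2 with the block (adjusted p = 0.0914).

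The MCAT list held muscle genes taken to have MCAT elements, to which TEADs bind, and their hamster promoters were not examined here. With the block, Acta1, Ckm, Tnnt2 and Acta2 showed larger differences than the genes called in the other lists. The difference of Chrnd (-0.19) was about the size of that of Asap1 (0.19). Of 6 listed genes 5 were tested, and all 5 fell with the block, with a median log2 difference of -0.69, where 4.07% of all genes were called lower. Acta1, skeletal alpha-actin, was measured at 831, 841, 445 and 459.6 TPM in control libraries 1 to 4 and at 171, 226, 174 and 133 TPM in cold libraries 1 to 4. Its groups were far apart, and Acta1 fell by 1.85 with the block (SE 0.09, adjusted p = 9.63e-11) and by 1.90 without it (SE 0.27, adjusted p = 0.056). Ckm, muscle creatine kinase, was low, with values of 6.51, 5.10, 1.95 and 1.16 TPM in the controls and 2.47, 2.11, 0.59 and 0.33 TPM in cold libraries 1 to 4, and fell by 1.46 (SE 0.18, adjusted p = 2.24e-05).

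Tnnt2, the embryonic and cardiac troponin T, was measured at 265, 250.0, 141 and 144 TPM in the controls and 125, 159.8, 108 and 99.9 TPM in the cold libraries 1 to 4, and fell by 0.69 (SE 0.08, edgeR with block, adjusted p = 7.47e-06). Acta2, smooth muscle actin, fell by 0.46 (SE 0.06, adjusted p = 2.68e-05), from 1526 ± 401 to 1097 ± 145 TPM (SD, n = 4). Chrnd, the delta subunit of the acetylcholine receptor, fell by 0.19 (SE 0.03, edgeR with block, adjusted p = 0.00185), and its 4 cold values lay under all 4 controls. All 5 were also called in the blocked fits of replicates 1 and 2 alone and of replicates 3 and 4 alone. Acta1 was among the genes the study selected on these libraries, and Acta1 and Ckm are also 2 of the 8 listed genes of differentiating muscle, so the list is not independent evidence of its direction. The summed levels of the differentiating muscle and the SC lists were both lower in the cold in each pair, and 8 of the 8 differentiating muscle genes were called lower with the block and none without it. Their part in the MCAT list was not tested.

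Of the MRTF-SRF list, which covers the partner pathway that reads actin dynamics, 0 of 9 genes were called and the median was 0.03. Srf itself differed by 0.14 (adjusted p = 0.103 with the block) and the focal-adhesion protein Vcl by 0.08 (adjusted p = 0.184), both higher in 4 of 4 pairs. Tpm1, tropomyosin 1, differed by -0.14 (adjusted p = 0.0622) and was lower in 4 of 4 pairs. Without the block and with single libraries left out, Srf ranged from 0.028 to 0.20 and Vcl from 0.034 to 0.11. Tpm1 ranged from -0.22 to -0.098 in those fits.

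**Figure D5:**
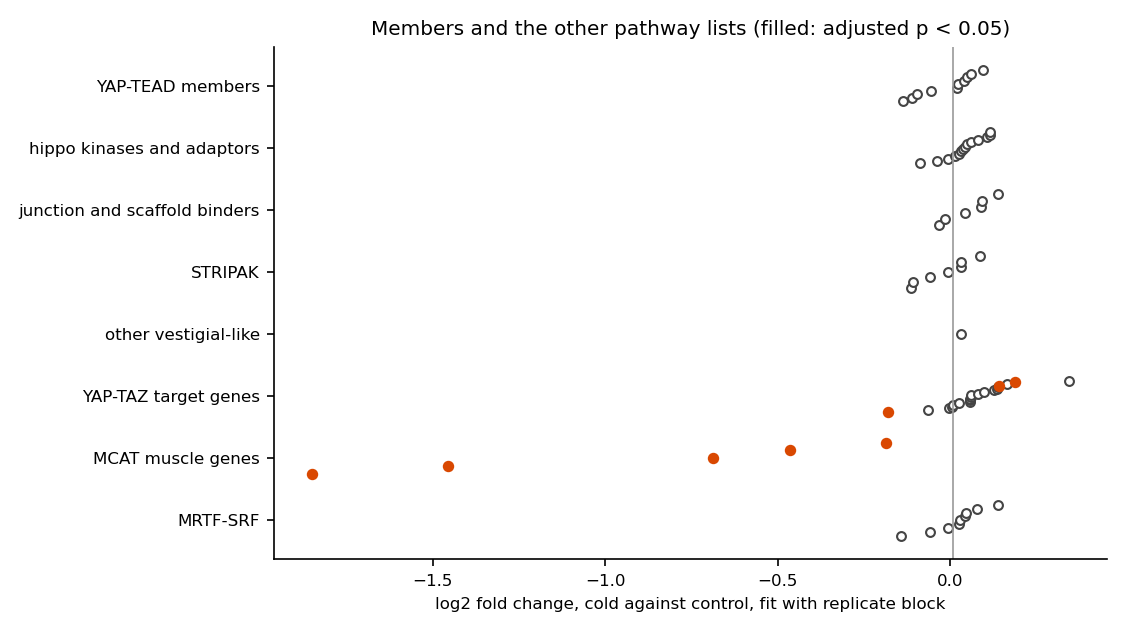
Log2 fold change of cold against control from the blocked edgeR fit (x axis) for the 10 YAP-TEAD genes and the 7 other pathway lists, 1 circle per gene tested. Filled circles have an adjusted p under 0.05, and the vertical line marks the median of all genes tested. The 10 YAP-TEAD genes lie between -0.14 and 0.10, and genes of the MCAT list extend farthest to the left.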

How the data were processed

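Polyadenylated RNA from 4 control and 4 cold libraries was read in paired ends. The deposited table holds, per gene and library, expected counts (not normalized), TPM values made by the authors, and the authors' normalized counts, a scaled signal that was not tested here. The submitters' processing notes name HISAT and HISAT2. The counting program and the genome build are not given in the sources used here, so no coordinates are printed. Promoter and protein sequences were not used here. All 10 symbols were found in the RefSeq gene table of assembly BCM_Maur_2.0.

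Expected counts (96.4 to 96.6% whole within 1e-06) were rounded to whole numbers. Cold was tested against control by the quasi-likelihood method of edgeR 4.0.16 under R 4.3.3 (TMM factors, filterByExpr), with Benjamini-Hochberg adjustment over the 12506 of 17590 genes that passed the filter. Genes were called at an adjusted p under 0.05, or, as in the study's definition, with a log2 fold change of at least 1 as well. TPM served for levels and for paralog shares, which were compared by exact permutation tests. Settings tried in addition were DESeq2 1.42.0, other normalizations and filters, limma 3.58.1 on log2(TPM + 0.1) and log2(TPM + 1), libraries left out, and the replicate block. Figures were drawn with matplotlib 3.10.9. The scripts were tested on simulated counts.

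Titles and column names number the libraries of both groups 1 to 4. The deviations of same-numbered control and cold libraries from their group means correlated at 0.609, 0.618, 0.647 and 0.659 over 12506 genes (a description across genes), so the numbers were taken to pair the libraries. Libraries numbered 1 with 2 and 3 with 4 correlated across the groups too, at 0.432 to 0.591. No 2 libraries of a group agreed within sampling noise.

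The YAP-TEAD genes and the lists were chosen with earlier results of these data known. All 10 YAP-TEAD genes are named. Of the other lists, the genes named are those with an adjusted p under 0.05 in either edgeR fit, filled up to 3 per list by the largest absolute log2 difference. One listed gene is not reported here and was left out of its list's counts.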

Additional observations from a re-analysis of the deposited data

Results flagged for a closer look

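In groups of 4 libraries, a value was picked out where its gap to the nearest other value was too large a part of the range of the group by Dixon's 95% limit. Of 72 groups of values checked, 2 were picked out, where chance gives about 3.6. The Stk3 level of cold 2 was 25.08 TPM, with the other 3 cold libraries at 22.6 to 23.0 TPM. The Strn3 level of control 4 was 88.21 TPM, with the other 3 controls at 75.9 to 76.8 TPM. No value of the 10 YAP-TEAD genes and no paralog share was picked out.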

How the results depend on the processing

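The count of YAP-TEAD genes called at an adjusted p under 0.05 was 0 in 22 of 25 alternatives. It was 1 in the blocked fit without the pair numbered 4 and 1 in replicates 1 and 2 alone (Vgll2 in both), and 3 in replicates 1 and 2 alone with replicate block (Vgll2, Tead4 and Ankrd1, where 17.1% of all genes were called). Of 250 values of the 10 genes over the alternatives, 21 changed sign and 5 were called, and the largest absolute log2 difference was 0.30. Only Tead4, Ankrd1 and Amotl2 kept their sign in every alternative, but with single libraries left out Tead4 ranged from -0.22 (without cold replicate 2) to -0.085 (without control replicate 1), Ankrd1 from -0.18 (without cold replicate 2) to -0.052 (without control replicate 1) and Amotl2 from 0.027 (without control replicate 3) to 0.16 (without cold replicate 3). Vgll2 ranged from -0.28 (without control replicate 4) to -0.021 (without control replicate 1). The median of the 10 genes ranged from -0.058 (without cold replicate 3) to 0.036 (without control replicate 4) with single libraries left out.

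Sign changes had these log2 values. With single libraries left out, Yap1 ranged from -0.064 to 0.13, Wwtr1 from -0.080 to 0.16, Tead1 from -0.022 to 0.066, Tead2 from -0.0081 to 0.091, Tead3 from -0.089 to 0.088, Vgll3 from -0.13 to 0.044, and Vgll4 from -0.096 to 0.12. In the blocked fit, Tead1 was -0.010 without the pair numbered 1 and Tead3 -0.024 without the pair numbered 3. In replicates 1 and 2 alone, Tead3 was -0.075 and Vgll4 -0.010 (-0.074 and -0.011 with the block). In replicates 3 and 4 alone, Yap1 was -0.0059, Tead1 -0.028, Vgll2 0.064 and Tjp1 -0.0069 (-0.0058, -0.027, 0.071 and -0.0069 with the block). Fgfr1op2 was -0.0063 on log2(TPM + 0.1) and -0.0062 on log2(TPM + 1). With single libraries left out, the cold minus control difference ranged from -3.72 to 3.66 percentage points for the share of Yap1, from -0.63 to 1.54 for Tead1, from -0.55 to 0.61 for Tead3, from 0.076 to 1.81 for Tead2 and from -1.85 to -0.84 for Tead4. The cause was not tested in any of these.

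Over all genes, 9 were called (5 with the fold limit) without the block. Counts were 142 (66) with DESeq2, 14 (8) with library totals, 25 (15) with no filter beyond 1 count, 4 (3) at a mean of 10 counts per group and 4 (3) with limma on either TPM scale. They were 0 to 46 (0 to 34) with single libraries left out, the highest without control replicate 3 and 0 without control replicate 4, cold replicate 1, cold replicate 3 or cold replicate 4. With the replicate block counts were 667 (106), with DESeq2 and the block 357 (86), and in the blocked fit without the pair numbered 1, 2, 3 or 4 they were 394 (88), 356 (101), 574 (135) and 927 (117). In replicates 1 and 2 alone they were 1442 (183), or 2135 (201) with the block, and in replicates 3 and 4 alone 50 (28), or 372 (75) with the block.

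Among the lists, MCAT muscle genes called without the block numbered 0, but 2 with DESeq2, 1 with library totals, 1 with no filter, 0 to 1 with single libraries left out, 5 in replicates 1 and 2 alone and 2 in replicates 3 and 4 alone, and they numbered 5 in every fit with the replicate block. Junction and scaffold binders numbered 1 in replicates 1 and 2 alone with and without the block. Target genes numbered 3 with the block, 2 with DESeq2 and the block, 0 in the blocked fits without the pair numbered 1 or 2, 3 and 4 without the pair numbered 3 or 4, 6 in replicates 1 and 2 alone with and without it, and 0 in replicates 3 and 4 alone with and without it. In replicates 1 and 2 alone, kinases and adaptors numbered 2 (3 with the block), STRIPAK genes 1 (2) and MRTF-SRF genes 1 (1), and MRTF-SRF genes also 1 in the blocked fit without the pair numbered 4. With single libraries left out the medians were -0.041 to 0.049 for MRTF-SRF genes, 0.0034 to 0.13 for target genes, -0.012 to 0.099 for kinases and adaptors, 0.015 to 0.078 for junction and scaffold binders, -0.033 to -0.0046 for STRIPAK genes and -0.90 to -0.55 for MCAT muscle genes. Of the marker lists, 8 differentiating muscle and 3 SC genes were called lower with the block and 0 without it. The block changed no other call among the genes named, the lists and the shares. For the lists, DESeq2 with the block and the blocked fits that leave out a pair were chosen after seeing the data, as were, for all results, the fits of 2 pairs with the block.

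The groups differ by 24 h in collection as well as in temperature, and these cannot be told apart.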
